A study of Homo sapiens with 6 samples.

Results

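The transcripts of 10 cytokine receptor chains were followed in cultured cells labelled HBMEC (human brain microvascular endothelial cells). The cells were compared after loss and return of oxygen and glucose (oxygen-glucose deprivation/reperfusion, OGD/R) and in control. The chains are IL7R, IL6R, IL6ST, LIFR, OSMR, IL4R, IL13RA1, IL1R1, TNFRSF1A and IL10RB. They were chosen by gene symbol, and all 10 of 10 had a row among the 17104 genes of the deposited count table and passed the filter on low counts. The choice was made with results of the comparison of OGD/R with control already known, so the fold changes of these 10 genes are given as a description and without p-values. IL7R was the chain that stood apart. It was 1.62 times as abundant after OGD/R as in control, while the other 9 chains had absolute log2 fold changes under 0.3.

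The study holds 6 RNA-seq libraries of HBMEC, labelled as a brain endothelial cell line. In the titles, 3 libraries are marked OGD and 3 CON, each numbered 1 to 3, and these are taken as the OGD/R group and the control group. OGD/R is a cell model of stroke in which oxygen and glucose are withdrawn and then restored. The labels used here do not say how long either step lasted. No genetic change or added agent is named for either group, and the labels do not tell separate cultures from repeat libraries of 1 culture, so p-values measure only the spread between these libraries, which may be technical. Libraries held 31048662 to 34484647 counts after OGD/R and 32107917 to 33607821 in control.

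The labelled cell type was set against marker lists. Of 12 endothelial markers, 4 had a value (CDH5, ESAM, EGFL7 and ROBO4), with a summed level of 203 to 210 CPM (a library's counts scaled to a common total, with edgeR's TMM factors) in OGD/R libraries and 198 to 215 CPM in control libraries. Of 12 epithelial markers, 9 had a value, summing to 3058 to 3114 CPM in OGD/R libraries and 2497 to 2724 CPM in control libraries. The epithelial sum was far above the endothelial sum in every library, so these lists do not by themselves bear out the endothelial label. After OGD/R, KRT8 averaged 1555 CPM, EPCAM 57.7 and CDH1 0.980, beside 132 for ESAM, 53.0 for EGFL7, 18.1 for CDH5 and 3.79 for ROBO4. Of the 4 endothelial genes with a value, 1 was called higher after OGD/R and 1 lower, which the sums do not show. CDH5 was higher, from 10.3 CPM in control (log2 fold change 0.81). ROBO4 was lower, from 6.36 CPM in control (−0.75). In the edgeR fit described below, 4 of these 9 epithelial genes were higher after OGD/R and 0 lower. Over all genes, 10.2% were called higher and 9.48% lower. The part of these marker genes in the receptor values was not tested. PECAM1, VWF, KDR and CLDN5 were on the endothelial list and had no value here, which does not show that they were not expressed. IL7R is best known from lymphocytes. Of 11 T cell markers, CD4 and CD8A had values, and together they reached 0.700 to 1.43 CPM in OGD/R libraries and 1.40 to 2.27 CPM in control libraries. The B cell, myeloid, fibroblast, pericyte and astrocyte lists had 1 of 5, 2 of 7, 1 of 6, 2 of 5 and 1 of 4 markers with a value, with summed levels from 0.239 to 17.8 CPM over all libraries.

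Most of the chains belong to the class I cytokine receptor family, which has no enzyme of its own. Ligand binding brings chains together, Janus kinases (JAK) bound to their tails phosphorylate each other, and STAT transcription factors carry the signal to the nucleus. IL7R pairs with the common gamma chain to bind IL-7, or with CRLF2 to bind thymic stromal lymphopoietin. IL6ST, also called gp130, is the shared signalling chain of the IL-6 family and pairs with IL6R, LIFR or OSMR. IL4R and IL13RA1 together form the receptor for IL-4 and IL-13 that is found outside the blood lineages. IL10RB is the shared class II chain for IL-10, IL-22 and the lambda interferons. IL1R1 signals through the adaptor MYD88, and TNFRSF1A, the main TNF receptor of most cells, through its death domain.

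The start regions of the genes differ in base composition, and 3 of them are printed: that of IL7R, the chain with the largest fold change, and those of OSMR and IL6ST, genes on the same chromosome with the 2 most abundant class I transcripts per length. Each is the 250 bases before the gene's start in RefSeq (GRCh38.p14), 5′ to 3′ on the gene's own strand, at chr5:35856641-35856890 (plus strand) for IL7R, chr5:38845762-38846011 (plus strand) for OSMR and chr5:55994964-55995213 (minus strand) for IL6ST. Capitals mark matches to any of 5 motifs on either strand: TTCNNNGAA (STAT), TGANTCA (AP-1), ACGTG (hypoxia response core), GGGCGG (SP1) and GGGNN followed by TTTCC (kappaB), where matches may overlap.
IL7R: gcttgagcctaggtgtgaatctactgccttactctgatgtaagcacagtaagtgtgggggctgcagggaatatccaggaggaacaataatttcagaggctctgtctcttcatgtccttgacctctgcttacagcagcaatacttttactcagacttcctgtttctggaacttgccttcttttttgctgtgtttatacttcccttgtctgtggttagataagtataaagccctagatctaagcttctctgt
OSMR: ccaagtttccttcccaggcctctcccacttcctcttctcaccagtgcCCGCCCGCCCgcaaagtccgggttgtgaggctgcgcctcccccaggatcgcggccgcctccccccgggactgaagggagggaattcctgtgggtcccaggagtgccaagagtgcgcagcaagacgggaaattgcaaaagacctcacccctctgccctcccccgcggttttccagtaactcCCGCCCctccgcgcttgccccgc
IL6ST: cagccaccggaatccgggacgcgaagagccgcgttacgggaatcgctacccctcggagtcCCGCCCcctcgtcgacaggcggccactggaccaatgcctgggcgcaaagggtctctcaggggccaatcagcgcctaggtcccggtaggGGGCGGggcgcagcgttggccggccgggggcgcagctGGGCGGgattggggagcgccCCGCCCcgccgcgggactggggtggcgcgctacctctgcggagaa

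The IL7R window was 43.6% G and C with 0 CpG dinucleotides, and it held 0 matches to the 5 motifs. The OSMR window was 66.4% G and C with 17 CpG dinucleotides and 3 SP1 matches, and the IL6ST window 73.6% with 31 CpG dinucleotides and 4 SP1 matches. RefSeq listed 15 such windows for the 10 genes, with 4 for IL1R1 and 3 for LIFR, and 1 of the LIFR windows shared the absence of CpG with IL7R. The median window over all 35116 listed starts was 58% G and C. A GGGCGG match stood in 8 of the 15 windows, which belong to 7 of the 10 genes, against 42.6% of all windows. STAT matches stood in 2 windows of LIFR and 1 of IL1R1 (6.57% of all windows), and the kappaB match in the window of IL4R (1.73% of all windows). The hypoxia response core stood in 1 window each of IL1R1 and LIFR (18.5% of all windows), and TGANTCA in 0 of the 15 (6.57% of all windows). Which start these cells use was not measured.

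The comparison of OGD/R with control asks which transcripts differ after deprivation and return of oxygen and glucose. It was fitted over all 17104 genes with edgeR's quasi-likelihood test, and a gene was called at an adjusted p under 0.05. By that rule 3 of the 10 receptor chains were called, 1 higher (IL7R) and 2 lower (OSMR and IL1R1). Over all genes 19.7% were called, 10.2% higher and 9.48% lower, and nothing is read from the receptors' count beside it. With total counts in place of TMM scaling, the called genes of the whole table split into 1383 higher and 2098 lower, against 1749 and 1621. The 3 OGD/R libraries lay wholly on one side of the 3 control libraries for 5 of the 10 chains, where 33% of all genes did so. The median log2 fold change of the 10 chains was −0.08, and that of all genes −0.00. In bulk RNA, a smaller share of cells with a transcript and less of it per cell cannot be told apart.

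**Figure D1:**
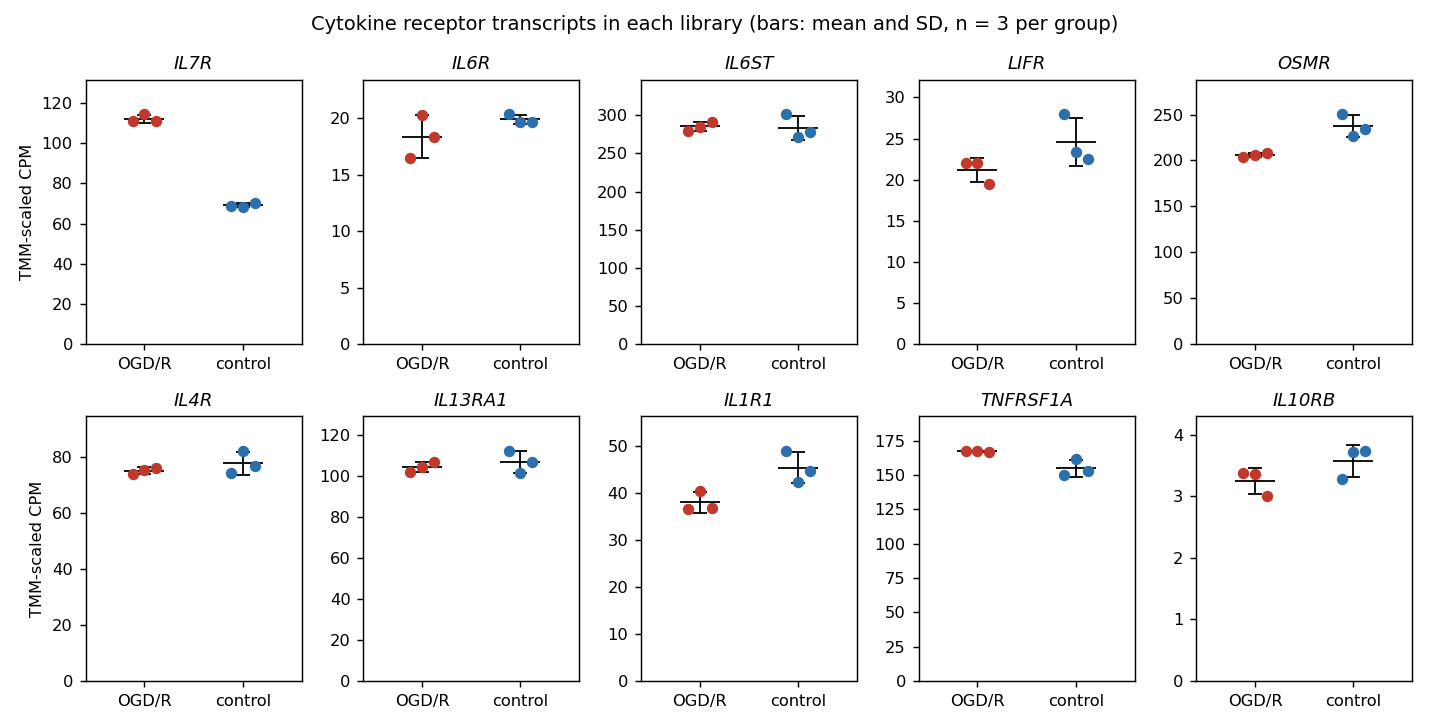
TMM-scaled CPM of each receptor chain in every library, with the 3 OGD/R libraries on the left and the 3 control libraries on the right of each panel; points are libraries and horizontal bars the mean with its SD. IL7R sits at 111 to 114 CPM after OGD/R and at 68.4 to 70.2 CPM in control, while IL6ST, IL4R and IL13RA1 overlap between the groups.

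IL7R (ENSG00000168685, chromosome 5), the ligand-binding alpha chain for IL-7, had 111, 114 and 111 CPM in the 3 OGD/R libraries and 68.7, 68.4 and 70.2 CPM in the 3 control libraries. These values rest on 3501 to 3799 counts per OGD/R library and 2244 to 2310 per control library. The groups were far apart, and within each the libraries lay close together: the mean was 112 ± 2.06 CPM after OGD/R and 69.1 ± 0.965 CPM in control (SD, n = 3 each). The log2 fold change was 0.70 ± 0.05 (SE), which ranked 395 from the top among all genes. Of the 3370 called genes, 94.0% had a smaller absolute log2 fold change than IL7R, and their median was 0.26. None of its annotated exon bases overlap another gene.

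Of the partners of IL7R, few had a value. IL7, which encodes the ligand, had 5.83, 7.61 and 7.51 CPM after OGD/R and 7.32, 5.69 and 6.47 CPM in control. The groups overlapped, and the log2 fold change of 0.10 ± 0.15 (SE) did not pass (edgeR adjusted p = 0.702). Leaving out 1 library gave values of 0.02 (without control replicate 2) to 0.22 (without OGD/R replicate 1), and the sign turned to −0.03 once fold changes were corrected for the length and GC content of transcripts. The common gamma chain IL2RG, CRLF2 and the ligand TSLP were sought and had no value here, which does not show that they were not expressed.

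Among the IL-6 family chains, the shared chain and the ligand-specific ones had different values. IL6ST (ENSG00000134352, chromosome 5), or gp130, had 280.0, 285 and 291 CPM after OGD/R and 301, 272 and 278 CPM in control. The groups overlapped fully, and the log2 fold change was 0.01 ± 0.04 (SE), with a sign that turned with total-count scaling (−0.02) and without OGD/R replicate 3 (−0.01) or control replicates 2 (−0.02) or 3 (−0.00). OSMR (ENSG00000145623, chromosome 5), which pairs with gp130 to bind oncostatin M and with IL31RA to bind IL-31, had 203, 206 and 208 CPM after OGD/R and 250.4, 227 and 235 CPM in control. All OGD/R libraries lay below all control libraries, with a log2 fold change of −0.21 ± 0.04 (SE). The ratio of IL6ST to OSMR per length, which does not depend on library scaling, was 0.848 ± 0.00748 after OGD/R and 0.731 ± 0.00629 in control (SD, n = 3 each).

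LIFR (ENSG00000113594, chromosome 5), which pairs with gp130 to bind leukaemia inhibitory factor, had 21.99, 22.1 and 19.5 CPM after OGD/R and 27.95, 23.3 and 22.6 CPM in control. The groups did not overlap, though the highest OGD/R library and the lowest control library were close. LIFR had a log2 fold change of −0.22 ± 0.09 (SE), about the size of that of OSMR with a wider error, and was not called. With total-count scaling it was called, at −0.25, while its value was −0.11 without control replicate 1 and −0.14 with a correction for length and GC content. IL6R (ENSG00000160712, chromosome 1), the IL-6 binding chain, had 16.5, 20.3 and 18.3 CPM after OGD/R and 20.4, 19.7 and 19.7 CPM in control. The groups overlapped, and the log2 fold change was −0.12 ± 0.09 (SE). It was −0.04 without OGD/R replicate 1, −0.19 without OGD/R replicate 2 and −0.03 with the length and GC correction.

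The chains that form the IL-4 and IL-13 receptor were near the same level in both groups. IL4R (ENSG00000077238, chromosome 16) had 73.9, 75.4 and 76.3 CPM after OGD/R and 74.4, 82.3 and 76.8 CPM in control, with a log2 fold change of −0.05 ± 0.05 (SE). IL13RA1 (ENSG00000131724, chromosome X) had 102, 105 and 107 CPM after OGD/R and 112, 102 and 107 CPM in control, with a log2 fold change of −0.03 ± 0.05 (SE). In both genes the groups overlapped. Without control replicate 2 the value of IL4R was −0.00, and without control replicate 1 the sign of IL13RA1 turned, to 0.01. Their ratio per length, IL13RA1 over IL4R, was 1.27 ± 0.00908 after OGD/R and 1.26 ± 0.126 in control (SD, n = 3 each). IL13RA2, a second IL-13 binding chain with a short tail, averaged 20.4 CPM after OGD/R and 21.8 CPM in control (log2 fold change −0.09 ± 0.09 SE, edgeR adjusted p = 0.555). It reached −0.26 with an adjusted p of 0.0265 after the length and GC correction, while without control replicate 1 its sign turned to 0.02, and its adjusted p ranged from 0.0191 to 0.938 over all alternatives.

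IL1R1 (ENSG00000115594, chromosome 2), the signalling receptor for IL-1 alpha and IL-1 beta, had 36.7, 40.6 and 36.8 CPM after OGD/R and 49.0, 42.5 and 44.8 CPM in control. All OGD/R libraries lay below all control libraries, and the log2 fold change was −0.26 ± 0.07 (SE). The call rested in part on 1 library: without control replicate 1 the log2 fold change was −0.20 and IL1R1 was no longer called. TNFRSF1A (ENSG00000067182, chromosome 12) had 168, 167 and 167 CPM after OGD/R and 150.2, 162 and 153 CPM in control. The groups did not overlap, with a log2 fold change of 0.11 ± 0.04 (SE), and TNFRSF1A was called only without control replicate 2, at 0.15. With the length and GC correction its value was 0.07.

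IL10RB (ENSG00000243646, chromosome 21) was the least abundant chain, with 101 to 116 counts per OGD/R library and 107 to 125 per control library. It had 3.38, 3.36 and 3.01 CPM after OGD/R and 3.28, 3.72 and 3.74 CPM in control. IL10RB overlapped between the groups, with a log2 fold change of −0.14 ± 0.20 (SE), and the wide error left a difference of the size seen for OSMR undetectable at this depth. Its value was −0.09 without OGD/R replicate 3 and −0.26 with the length and GC correction. In the annotation, 38.1% of its exon bases also belong to another gene on the same strand, so reads may have been shared or lost in counting. In the other 9 chains this share was at most 8.58%, with the overlapping gene on the opposite strand.

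Levels of different genes were compared as CPM per kilobase of the longest annotated transcript. In this unit TNFRSF1A was the most abundant chain, at 75.3 ± 0.135 after OGD/R and 69.7 ± 2.75 in control (SD, n = 3 each). OSMR followed with 37.2 ± 0.420 after OGD/R and 42.9 ± 2.15 in control, then IL6ST with 31.5 ± 0.620 after OGD/R and 31.3 ± 1.72 in control. IL13RA1 had 25.9 ± 0.597 after OGD/R and 26.5 ± 1.34 in control. IL7R had 24.2 ± 0.446 after OGD/R and 14.9 ± 0.209 in control, and IL4R 20.4 ± 0.326 after OGD/R and 21.1 ± 1.09 in control. IL7R therefore ranked 5 of 10 after OGD/R, above IL4R, and 6 of 10 in control, below it.

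The lower end of the order was the same in both groups. IL1R1 had 7.40 ± 0.426 CPM per kilobase after OGD/R and 8.84 ± 0.642 in control, and IL6R 3.11 ± 0.322 after OGD/R and 3.37 ± 0.0669 in control. LIFR had 2.10 ± 0.147 after OGD/R and 2.44 ± 0.290 in control, and IL10RB 1.53 ± 0.0981 after OGD/R and 1.68 ± 0.123 in control. No neighbours in either order overlapped in their library ranges. With all annotated exon bases as the length, OSMR and IL6ST overlapped in control and changed places after OGD/R. Per length, IL6ST was 10.2 ± 0.967 times as abundant as IL6R after OGD/R and 9.31 ± 0.327 times in control, and OSMR 17.8 ± 1.46 times as abundant as LIFR after OGD/R and 17.7 ± 1.32 times in control.

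**Figure D2:**
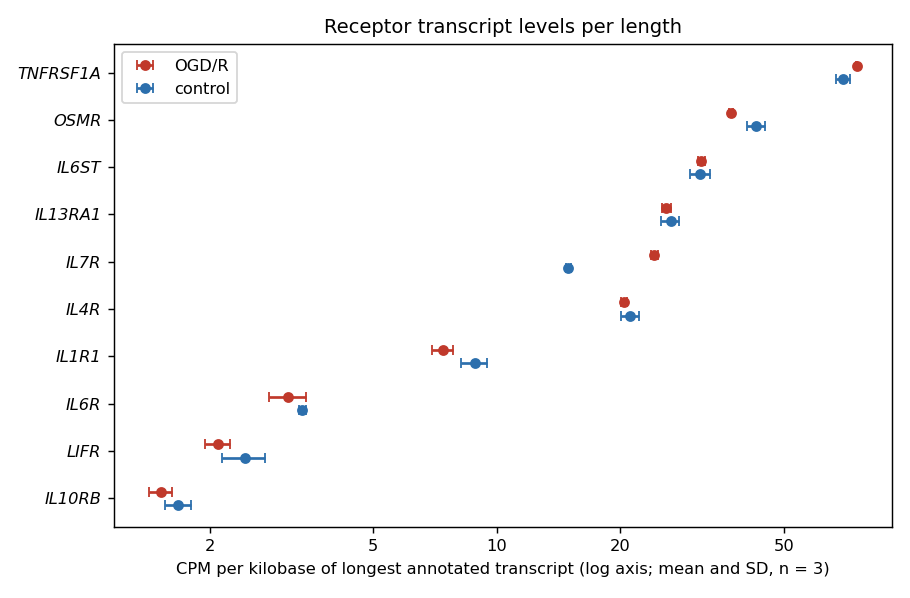
CPM per kilobase of the longest annotated transcript (log axis) for each receptor chain, as mean and SD of 3 OGD/R and 3 control libraries, ordered by the OGD/R mean. TNFRSF1A is at 75.3 after OGD/R and 69.7 in control, and IL7R is the chain whose group means stand furthest apart, at 24.2 after OGD/R and 14.9 in control.

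The difference in IL7R can be read against single chains, as ratios per length that restate it and are given as a description. IL7R over IL4R was 1.19 ± 0.0265 after OGD/R and 0.709 ± 0.0402 in control, and IL7R over IL1R1 was 3.28 ± 0.124 after OGD/R and 1.70 ± 0.122 in control (SD, n = 3 each), where IL1R1 was itself called lower after OGD/R. These ratios are taken within a library and so carry no scaling factor. Under the 16 processing alternatives the log2 fold change of IL7R ranged from 0.67 to 0.71. These alternatives refit the same libraries, so the range describes the processing only.

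**Figure D3:**
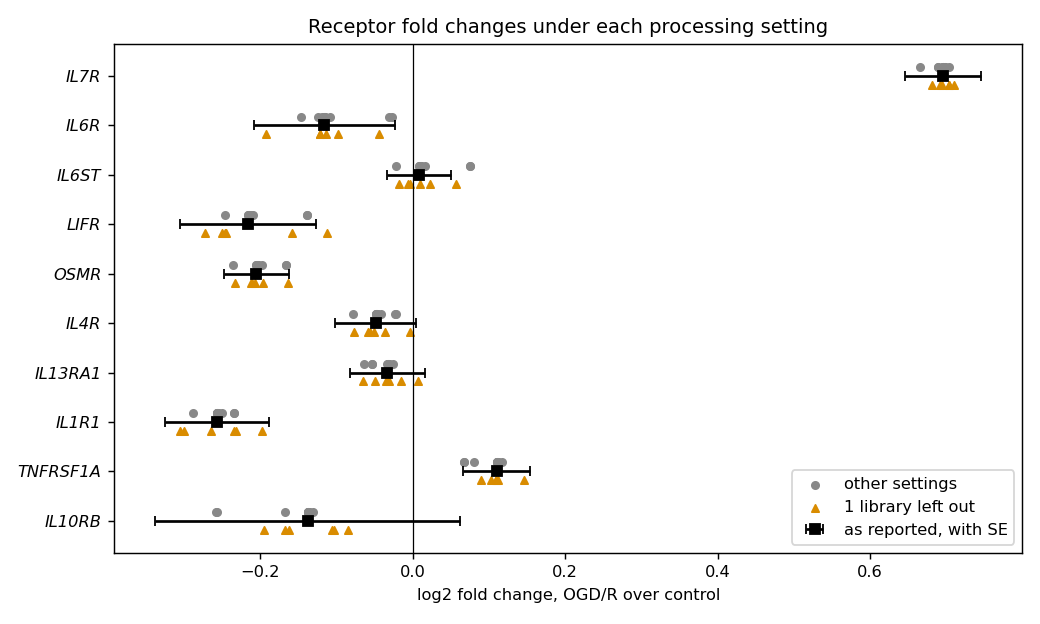
Log2 fold change of OGD/R over control for each receptor chain as reported (squares, with SE), under 10 other processing settings (circles) and with each of 6 libraries left out (triangles). IL7R stays between 0.67 and 0.71, and IL6ST and IL13RA1 have values on both sides of 0.

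The 5 genes with profiles most like that of IL7R over the 6 libraries were INSIG1, FDPS, CDKN3, PTTG1 and CORO1A. Likeness was the root mean square difference of log2 CPM profiles centred on their own mean, among 11189 other genes averaging 5 CPM or more, and it ran from 0.06 for INSIG1 to 0.07 for CORO1A. All 6 libraries and both groups enter this measure, so a similar difference between the groups is part of it. INSIG1, a sterol-regulated retention factor, averaged 133 ± 6.12 CPM after OGD/R and 85.2 ± 3.70 CPM in control (SD, n = 3 each). FDPS, farnesyl diphosphate synthase, averaged 78.0 ± 1.79 CPM after OGD/R and 51.7 ± 1.57 CPM in control. PTTG1, which encodes securin, averaged 132 ± 2.56 CPM after OGD/R and 82.6 ± 5.55 CPM in control. CDKN3, a phosphatase of cyclin-dependent kinases, averaged 55.8 ± 1.23 CPM after OGD/R and 37.1 ± 1.40 CPM in control. CORO1A, an actin-binding coronin, averaged 18.2 ± 0.732 CPM after OGD/R and 11.4 ± 0.691 CPM in control.

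Of 48 other measured chains from 4 receptor lists, 1 was higher and 2 were lower, which is 6.25% beside 19.7% of all genes. Of these 2, IL1RL1 reached 10 counts only in the control libraries, and its call is not read as a test. Of all 58 measured chains, the 10 above included, 0 had a larger increase than IL7R. A larger absolute log2 fold change was found in 2 (IL1RL1 and IL3RA), both downward. The chains were chosen with results of this comparison known, so this order is only a description. Among 15 other class I chains, 0 were higher and 1 was lower (0 higher and 2 lower at an unadjusted p under 0.05), while limma-voom called 0 higher and 1 lower. DESeq2 called 0 and gave the gene that edgeR called no adjusted p. That gene was IL3RA, the IL-3 binding chain, with 0.671, 0.392 and 0.626 CPM after OGD/R and 1.93, 1.10 and 1.12 CPM in control (log2 fold change −1.29 ± 0.39 SE, edgeR adjusted p = 0.0136). Its call ended without OGD/R replicate 2 (−1.09, adjusted p = 0.0741) and without control replicate 1 (−0.97, adjusted p = 0.149). Of 8 other class II chains, edgeR called 0, with 0 at an unadjusted p under 0.05 and 0 by DESeq2 and limma-voom.

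In the IL-1 and IL-17 receptor family, 0 of 10 measured genes were higher and 1 was lower, which is 10% beside 19.7% of all genes. The counts were 0 and 1 at an unadjusted p under 0.05, and 0 and 1 by limma-voom. DESeq2 called 0 and gave the lower gene no adjusted p. It was IL1RL1, the IL-33 receptor, with CPM values of 0, 0.0653 and 0 after OGD/R and 0.735, 0.655 and 0.608 in control. The ratio of summed counts, 2 after OGD/R and 66 in control, was 0.0305 with a 95% exact interval of 0.00362 to 0.115, which covers counting error only. Every gene of the table reached 10 counts in 3 or more libraries, and IL1RL1 did so only in the control libraries, so it had to differ and its call is not read as a test. IL1RAP, the chain that IL1R1 needs to signal, had 32.6, 33.2 and 27.7 CPM after OGD/R and 34.0, 33.2 and 35.3 CPM in control, and did not pass (log2 fold change −0.13 ± 0.08 SE, edgeR adjusted p = 0.229). Without OGD/R replicate 3, its lowest library, the value was −0.06.

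In the TNF receptor superfamily, 1 of 15 measured genes was higher and 0 were lower, which is 6.67% beside 19.7% of all genes. The counts were 2 and 3 at an unadjusted p under 0.05, and 1 and 0 by both DESeq2 and limma-voom. CD40, a co-stimulatory receptor also found on endothelial cells, had 184, 178 and 184 CPM after OGD/R and 151, 161 and 149.7 CPM in control. The groups did not overlap, with a log2 fold change of 0.24 ± 0.04 (SE, edgeR adjusted p = 3.98e-05), and it was 0.15 with the length and GC correction. TNFRSF1B, the second TNF receptor, was sought and had no value here.

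Among 10 measured ligand genes of these receptors, 1 was higher and 4 were lower, with a median log2 fold change of −0.27, beside 19.7% of all genes called and a median of −0.00 over them. IL1B, a ligand of IL1R1, had 62.0, 66.4 and 62.4 CPM after OGD/R and 88.5, 99.1 and 84.6 CPM in control (log2 fold change −0.51 ± 0.06 SE, edgeR adjusted p = 7.80e-10). IL1A, the other activating ligand of IL1R1, had 22.1, 27.4 and 23.2 CPM after OGD/R and 35.1, 31.0 and 30.1 CPM in control (−0.41 ± 0.08 SE, adjusted p = 0.000209), and was named after its values were seen. For both ligands, as for IL1R1, the OGD/R libraries lay below the control libraries.

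IL6 had 114, 119 and 115 CPM after OGD/R and 141, 147 and 139 CPM in control (log2 fold change −0.29 ± 0.05 SE, edgeR adjusted p = 1.97e-06). LIF, the ligand of LIFR, had 559, 567 and 571 CPM after OGD/R and 641, 688 and 684 CPM in control (−0.25 ± 0.04 SE, adjusted p = 4.95e-06). Both were lower in every OGD/R library than in any control library, and 20.7% of the exon bases of IL6 are shared with genes on the opposite strand. TNF, the ligand of TNFRSF1A, went the other way, with 59.4, 58.7 and 59.0 CPM after OGD/R and 50.2, 54.1 and 47.1 CPM in control (0.23 ± 0.06 SE, adjusted p = 0.00507). It was no longer called with the length and GC correction (0.14, adjusted p = 0.0583) or without control replicate 3 (0.18, adjusted p = 0.0675), within an adjusted p of 0.000859 to 0.0675 over all alternatives.

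Of 11 Janus kinases and STAT factors, 3 were higher and 1 was lower, which is 36.4% beside 19.7% of all genes. DESeq2 called 4 higher and 1 lower, and limma-voom 3 and 1. The counts were 2 and 1 with total counts, and 5 and 1 with the length and GC correction. STAT6, which carries the IL-4 and IL-13 signal, averaged 185 ± 5.04 CPM after OGD/R and 163 ± 10.1 CPM in control (log2 fold change 0.18 ± 0.05 SE, edgeR adjusted p = 0.00201). STAT5B, one of the STAT5 factors used by IL7R, averaged 70.8 ± 2.51 CPM after OGD/R and 81.4 ± 4.13 CPM in control (−0.20 ± 0.05 SE, adjusted p = 0.00534), and its call ended without control replicate 3 (−0.16, adjusted p = 0.0843). With the length and GC correction its value was −0.13.

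STAT3, the main factor below gp130, averaged 222 ± 6.19 CPM after OGD/R and 204 ± 5.68 CPM in control, with a log2 fold change of 0.12 ± 0.04 (SE, edgeR adjusted p = 0.0377). That call ended with total-count scaling (0.09, adjusted p = 0.149) and without any 1 of 5 of the 6 libraries, the exception being control replicate 3, with log2 fold changes of 0.10 to 0.13. JAK1, the kinase shared by most of the class I chains, averaged 207 ± 3.34 CPM after OGD/R and 192 ± 5.17 CPM in control (0.11 ± 0.04 SE, adjusted p = 0.0636). It did not pass, but did under 5 alternatives, among them DESeq2 (0.11, adjusted p = 0.0360) and the length and GC correction (0.14, adjusted p = 0.00263).

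Of 17 measured feedback inhibitors and phosphatases of JAK-STAT signalling, 1 was higher and 2 were lower, which is 17.6% beside 19.7% of all genes. DESeq2 and limma-voom each called 1 higher and 2 lower. SOCS1, which inhibits JAK1 and JAK2, had 17.4, 15.4 and 14.7 CPM after OGD/R and 9.67, 10.99 and 10.4 CPM in control (log2 fold change 0.61 ± 0.11 SE, edgeR adjusted p = 2.50e-05). SOCS7 averaged 33.2 ± 1.53 CPM after OGD/R and 41.8 ± 1.98 CPM in control (log2 fold change −0.33 ± 0.07 SE, edgeR adjusted p = 0.000273). With the length and GC correction the value of SOCS7 was −0.21. SOCS6, of the same family, averaged 48.0 ± 2.42 CPM after OGD/R and 56.6 ± 2.20 CPM in control (log2 fold change −0.24 ± 0.06 SE, edgeR adjusted p = 0.00319). SOCS3, the inhibitor that binds gp130, had 13.6, 17.7 and 13.7 CPM after OGD/R and 13.6, 17.2 and 13.6 CPM in control. Its groups overlapped fully (0.02 ± 0.11 SE, adjusted p = 0.950), and its sign turned under 4 alternatives.

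Of 22 adaptors and kinases of IL-1 and TNF receptors, 1 was higher and 6 were lower, which is 31.8% beside 19.7% of all genes. DESeq2 called 1 higher and 4 lower, and limma-voom 1 and 5. IRAK2, a kinase of the MYD88 complex below IL1R1, had 108, 119 and 110.3 CPM after OGD/R and 143, 143 and 149.7 CPM in control (log2 fold change −0.37 ± 0.05 SE, edgeR adjusted p = 2.87e-08). TRAF3, an adaptor that restrains non-canonical NF-kB signalling, averaged 118 ± 2.41 CPM after OGD/R and 134 ± 6.98 CPM in control (−0.18 ± 0.05 SE, adjusted p = 0.00280), with a value of −0.06 (adjusted p = 0.366) after the length and GC correction and of −0.14 (adjusted p = 0.0682) without control replicate 3. BIRC3, an inhibitor of cell death recruited to TNF receptors, averaged 204 ± 6.49 CPM after OGD/R and 175 ± 6.69 CPM in control (0.22 ± 0.04 SE, adjusted p = 0.000107). Without control replicate 3, 2 genes of this list were called, 1 higher and 1 lower. Leaving out OGD/R replicate 2 or control replicate 1 gave 4, with 1 higher and 3 lower. The length and GC correction also gave 4, with 2 higher and 2 lower, so the excess of lower genes depended on the processing.

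Of 6 genes for receptor shedding, 1 was higher and 0 were lower (1 and 0 at an unadjusted p under 0.05, and 1 and 0 by DESeq2 and limma-voom). It was NRDC, a metalloendopeptidase that enhances shedding by ADAM17, with 159, 160.1 and 160.0 CPM after OGD/R and 139.7, 142 and 139.9 CPM in control (log2 fold change 0.18 ± 0.04 SE, edgeR adjusted p = 0.00130). Over the 9 lists together, 8 of 114 measured genes were higher and 15 lower, which is 20.2%, near the 19.7% of all genes. The 15 include IL1RL1, whose call is not read as a test.

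**Figure D4:**
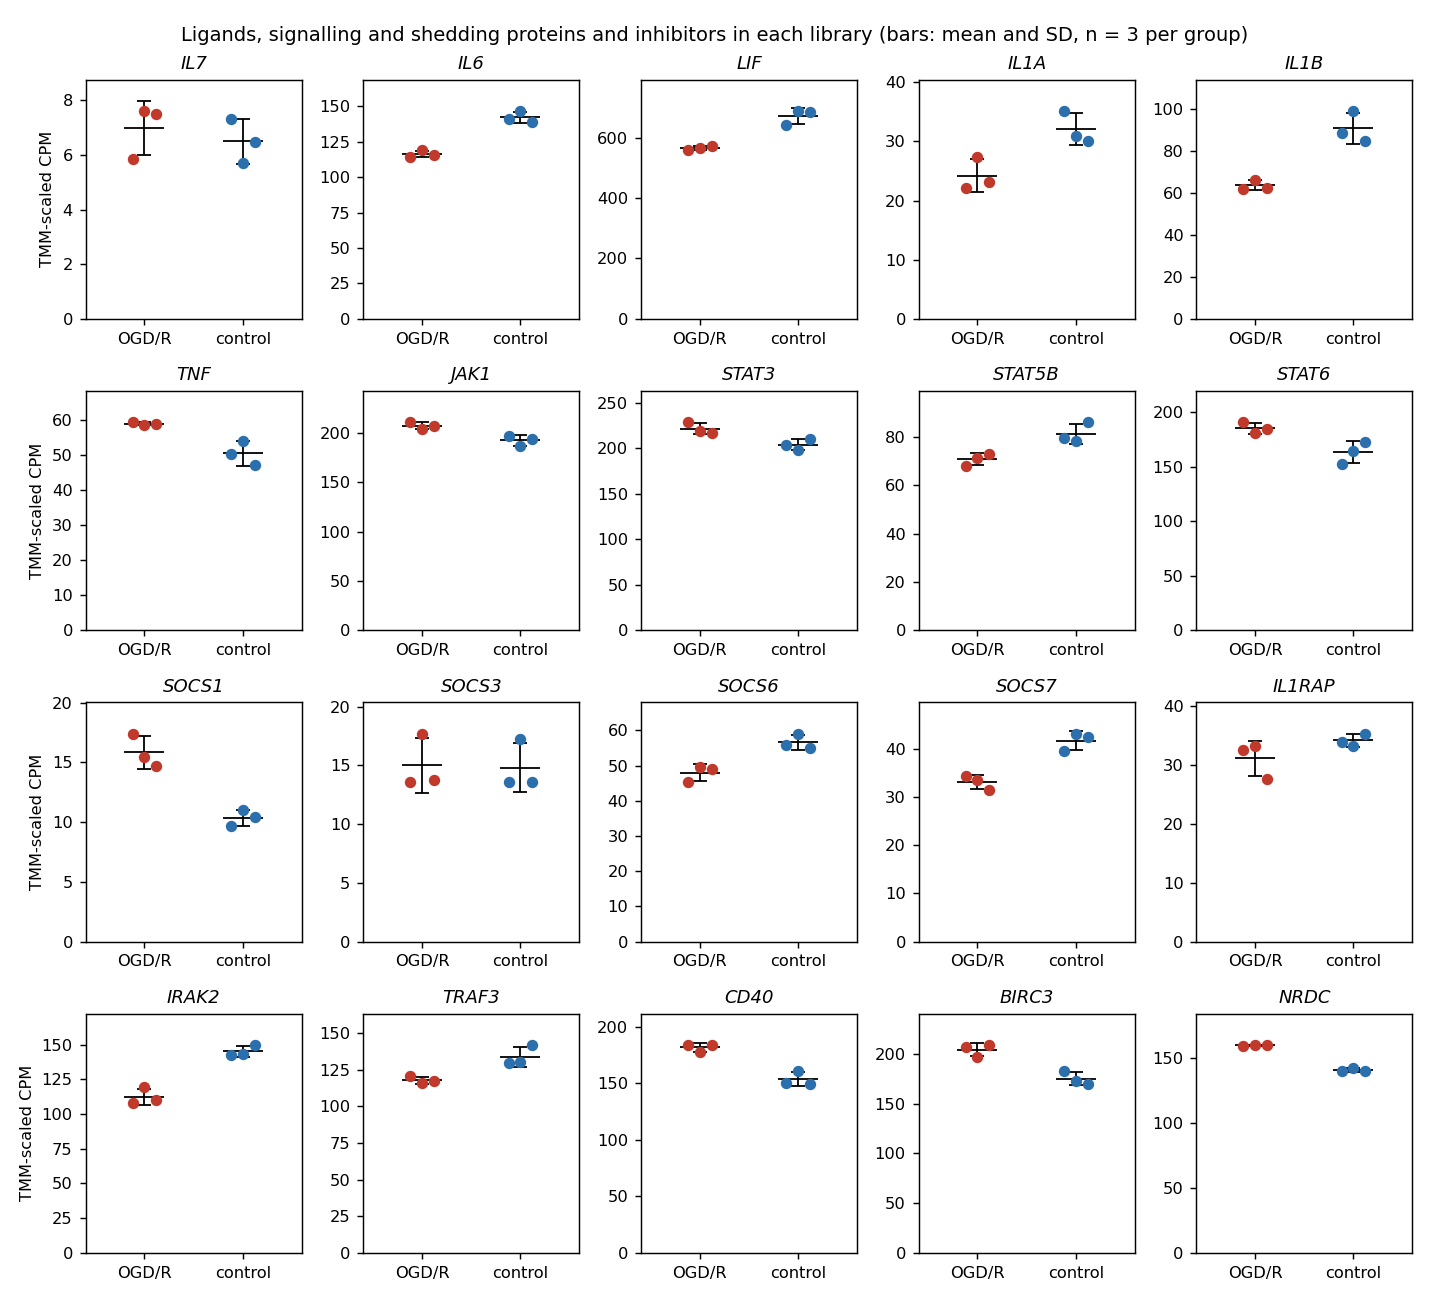
TMM-scaled CPM of 20 ligand, signalling, shedding and inhibitor genes in each library, with OGD/R on the left and control on the right of each panel; points are libraries and horizontal bars the mean with its SD. IL1B, IL6, LIF and IRAK2 sit lower in all 3 OGD/R libraries and SOCS1, CD40 and BIRC3 sit higher, while IL7 and SOCS3 overlap.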

How the data were processed

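RNA of 6 HBMEC libraries was sequenced, and raw read counts per Ensembl gene were deposited by the authors in 1 table of 17104 genes. Trimmomatic, HISAT2, SAMtools, featureCounts and edgeR are named, without versions, in the submitters' processing notes. These notes give the build GRCm38, a mouse genome, although the gene IDs are human, so no coordinates were taken from the table. Whether counting used strand is not stated, and genes sharing exon bases may share reads. In 3 or more libraries, every gene reached 10 counts.

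Symbols were found for 17093 IDs in a reference list of gene names. Transcript lengths came from GENCODE 29 and were found for 16530 genes. The other genes got no length and GC correction. Groups came from the sample titles. The counts were fitted with edgeR 4.0.16 (R 4.3.3), with TMM scaling, robust quasi-likelihood tests and Benjamini-Hochberg adjustment over all genes, without a replicate block; filterByExpr removed 0 genes. DESeq2 1.42.0, limma 3.58.1 (voom), other scalings, a CPM filter, a block, a length and GC correction (mgcv 1.9.3) and leaving out each library were alternatives. Fits were tested on simulated data. Libraries of 31048662 to 34484647 counts and a biological coefficient of variation of 6.26% set the precision.

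The receptor chains and gene lists were chosen with earlier results of these data known. Named from each list were the 3 called genes with the smallest p and a preset set of partners; IL1A was added, and 1 gene is not reported here. The 5 genes most like IL7R had the smallest root mean square difference of log2(CPM + 0.5) profiles. Promoter windows came from RefSeq.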

Additional observations from a re-analysis of the deposited data

How the results depend on the processing

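Over 38 named genes, 605 values under alternatives were computed, of which 569 kept direction and side of the threshold, 15 lost the call, 9 gained it and 12 turned sign. The 16 values of IL7R refit the libraries in which its difference was already known, and nothing is read from its calls. Without one library at a time, called genes ranged from 2383 to 3367 over all genes, 2 to 4 among the 10 receptor chains, 4 to 6 for ligands, 3 to 4 for Janus kinases and STAT factors, 3 in every case for feedback inhibitors, 2 to 7 for adaptors, 0 to 1 for other class I chains, 0 for class II chains, 1 for the IL-1 and IL-17 family, 1 to 2 for the TNF receptor superfamily and 1 for shedding genes. Total counts gave 2 class I and 3 TNF superfamily calls. DESeq2 gave 0 class I and 0 IL-1 family calls. The filter of 1 CPM in 3 libraries gave 0 IL-1 family and 2 TNF superfamily calls, and upper-quartile scaling 2 TNF superfamily calls. The length and GC correction gave 3 class I, 3 TNF superfamily, 4 adaptor and 2 shedding calls. The cause was not tested. Leaving out the filter tested the same genes.

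Samples sharing a replicate number did not deviate together (correlations of −0.01, 0.04 and 0.01 over 14013 genes), so the numbers were not taken as pairs. With the replicate block, 3529 genes, 3 receptor chains and 2 TNF superfamily genes were called. The block with the length and GC correction gave 3 class I, 1 class II, 2 IL-1 family, 3 TNF superfamily, 4 adaptor and 2 shedding calls.

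Log2 fold changes turned sign for IL7 with the length and GC correction (−0.0262, or −0.0276 with the block as well), and with total counts for IL6ST (−0.0224) and SOCS3 (−0.0133). Leaving out one library at a time turned the sign of 4 genes. IL13RA1 ranged from −0.0659 to 0.00615 and IL13RA2 from −0.180 to 0.0178, each turning without control replicate 1. IL6ST ranged from −0.0183 to 0.0563 and turned without OGD/R replicate 3 or control replicates 2 or 3, and SOCS3 ranged from −0.117 to 0.142 and turned without OGD/R replicate 2 or control replicates 1 or 3. Per kilobase of all exon bases, OGD/R levels were 41.8 CPM for TNFRSF1A, 30.7 for IL6ST, 28.7 for OSMR, 23.9 for IL13RA1, 18.5 for IL7R, 12.8 for IL4R, 5.37 for IL1R1, 1.79 for LIFR and 0.715 for IL10RB. Depth limits IL10RB, IL3RA and IL1RL1 most.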
